A study of Mus musculus with 124 samples.

Results

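The genes described here are the nuclear-encoded subunits of respiratory complexes II, III, IV and V, picked by symbol: Sdha to Sdhd, Cyc1, the Uqcr genes, Cox4 to Cox8 genes and the Atp5 genes, leaving out symbols that hold -ps, os or Rik. In all, 52 of the 35096 symbols in the 3 expression tables matched. They stand for 51 genes, because Atp5f1 in the oocyte and dDG tables and Atp5pb in the blastocyst table are the same RefSeq gene. There were 47 of them in the oocyte table, 48 in the blastocyst table and 48 in that of the dorsal dentate gyrus (dDG, the hippocampal region that holds granule neurons). Atp5s and Atp5sl matched by symbol only: RefSeq lists them as Dmac2l and Dmac2, and they are not subunits of ATP synthase.

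Succinate dehydrogenase (complex II) passes electrons from the tricarboxylic acid cycle to ubiquinone, the cytochrome bc1 complex (complex III) carries them on to cytochrome c, and cytochrome c oxidase (complex IV) hands them to oxygen. Complexes III and IV pump protons across the inner mitochondrial membrane, and ATP synthase (complex V) uses the returning protons to make ATP. Oocytes carry a large stock of maternal mitochondria, the blastocyst uses oxidative phosphorylation to power the ion pumping that fills its cavity, and neurons depend on it for their ion gradients.

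The study compared mice given human chorionic gonadotropin (hCG), a hormone that triggers ovulation, with controls (Ctrl). Females of the hCG group were in natural estrus and received 7.5 IU by intraperitoneal injection with no earlier priming. For oocytes, Ctrl females in estrus were housed with a vasectomised male. The matings that gave blastocysts and offspring are not described here. Metaphase II oocytes were taken 14 h after hCG or on the morning after a plug, so mating and the time since ovulation differed between these groups, and were stripped of cumulus cells. Blastocysts were flushed from the uterus at embryonic day 3.5, and the dDG came from offspring 8 weeks old. Each group had 6 oocyte, 28 blastocyst and 6 dDG RNA libraries. Oocyte and blastocyst libraries are called oocytes and embryos below, though their titles do not give the number of oocytes or embryos in each. The labels do not say that the libraries of a group come from separate females or litters, so p-values measure the spread between these samples, which may be technical.

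Depth ran from 2375645 to 6910882 counts per oocyte library, from 3043231 to 10859379 estimated reads per blastocyst library and from 14941550 to 17799935 counts per dDG library. The marker genes of each labelled material were present. Summed oocyte markers lay between 5805 and 8150 CPM (counts scaled to a common library total) in hCG oocytes and between 7418 and 10950 CPM in Ctrl oocytes, and the cumulus and granulosa list to between 16.6 and 24.2 CPM in hCG and between 15.3 and 24.8 CPM in Ctrl oocytes. Of that list's 8 genes, Fshr, Foxl2, Inha and Ptx3 were at 0 in every oocyte library and the other 4 were not. Dentate granule neuron markers summed to between 1114 and 1385 CPM in hCG dDG and between 728 and 1255 CPM in Ctrl dDG. Library 6 of the hCG dDG held choroid plexus transcripts, with 9580 CPM summed over the list against at most 112 CPM in any Ctrl dDG library. Replicates 1, 3, 4, 22 and 23 of the hCG blastocysts held both Xist (over 50 CPM, and at least 69.4 CPM) and Y-linked transcripts (over 100 CPM). These limits were read off the data, and the next libraries over 100 CPM of Y-linked transcripts had 23.3 CPM Xist (hCG 15) and 19.2 CPM Xist (Ctrl 7). More genes were detected in hCG blastocysts, 13549 ± 335 against 12968 ± 798 in Ctrl blastocysts (SD, n = 28 each; permutation test, two-sided, adjusted p = 0.00018).

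Promoter sequences of the genes on which the results turn are given first. RefSeq promoter windows (GRCm38.p6, 250 bases before to 50 after a transcription start) were found for 38 of the 51 genes, in 42 windows. Motifs known from promoters of respiratory genes were searched on both strands: GCGCATGC, the core of the nuclear respiratory factor 1 motif, CCGGAAGT, bound by Ets factors such as GA-binding protein, and GCCATNTT, bound by YY1. The nuclear respiratory factor 1 core stood in 16.7% of the members' windows against 2.71% of all 32851 windows, the Ets motif in 9.52% against 3.89%, and the YY1 motif in 16.7% against 6.05%. At least 1 of the 3 motifs stood in 40.5% of the members' windows and in 11.8% of all windows. The members' windows had a median GC content of 56.5%, against 52.7% over all windows, and GC content was not matched in these shares. A match is a stretch of letters and no measured binding. Of the 13 genes called in any material, 12 had a window (Cox6c had none), and 6 of these held a motif, shown here in capitals within 30 bases written 5′ to 3′ on the gene's own strand.
Cox6a1, chr5:115349101-115349130, minus strand, nuclear respiratory factor 1 core read on both strands: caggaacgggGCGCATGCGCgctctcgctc
Uqcrc1, chr9:108936668-108936697, plus strand, nuclear respiratory factor 1 core read on both strands: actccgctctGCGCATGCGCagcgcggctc
Atp5h, chr11:115419940-115419969, minus strand, Ets motif on the opposite strand: ccaaggagagaACTTCCGGcaactctcttc
Atp5pb, chr3:105959248-105959277, minus strand, YY1 motif: atgtgcgagcgGCCATCTTgctcctgcccc
Atp5j2, chr5:145191500-145191529, minus strand, YY1 motif on the opposite strand: accaggacttcAAGATGGCgtcactcggtg
Cox7b, chrX:106015720-106015749, plus strand, YY1 motif: ggctccctgctgaaaGCCATTTTgtttttc
For comparison, the 120 bases upstream of Uqcrc1 and Cox6b2, the 2 members higher in hCG blastocysts, and of Atp5h, which was lower there, are given with any motif in capitals.
Uqcrc1, chr9:108936528-108936647, plus strand: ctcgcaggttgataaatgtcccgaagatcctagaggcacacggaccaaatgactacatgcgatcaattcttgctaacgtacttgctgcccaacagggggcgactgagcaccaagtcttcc
Cox6b2, chr7:4753095-4753214, minus strand: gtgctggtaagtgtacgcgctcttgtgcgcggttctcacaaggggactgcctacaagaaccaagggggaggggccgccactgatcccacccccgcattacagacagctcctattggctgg
Atp5h, chr11:115419920-115420039, minus strand: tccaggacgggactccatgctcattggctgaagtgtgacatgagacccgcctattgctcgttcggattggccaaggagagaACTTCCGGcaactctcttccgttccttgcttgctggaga
The upstream stretches of Uqcrc1 and Cox6b2 held none of the 3 motifs. The matches of Uqcrc1, Atp5j2 and Cox7b lie just after the start, and that of Atp5pb spans it. Among lower blastocyst genes with a window, Atp5h alone held a motif wholly within its 120 upstream bases. The windows of Cox5a, Cox7a2, Cox7c, Atp5g3 and Atp5md held none. These stretches thus do not set lower genes apart from higher ones. The same nuclear respiratory factor 1 letters stood in the windows of Cox6a1, lower in hCG oocytes, and of Uqcrc1, higher in hCG blastocysts.

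In blastocysts, 5 of 14 complex IV genes and 5 of 17 complex V genes tested were lower in embryos of hCG mothers, and 1 of 9 complex III genes and 1 complex IV gene were higher. Of 44 members tested, 10 passed the threshold as lower and 2 as higher (limma on log2(CPM + 1), Benjamini-Hochberg adjusted p under 0.05), beside 7.59% of all 10850 genes called lower and 8.68% called higher. All 10 lower genes encode subunits of cytochrome c oxidase (Cox5a, Cox6c, Cox7a2, Cox7b and Cox7c) or of ATP synthase (Atp5g3, Atp5h, Atp5j2, Atp5md and Atp5pb), and the 2 higher genes were Uqcrc1 and Cox6b2. The fitted fold was between 0.756 and 0.826 for the lower genes, 1.35 for Uqcrc1 and 1.55 for Cox6b2. The median log2 fold change was -0.17 over the 44 members and 0.02 over all genes tested, and 38 of the 44 members had a negative value against 47.0% of all genes. These samples are whole embryos or pooled tissue RNA, in which fewer cells of a type and less RNA per cell cannot be told apart.

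**Figure D1:**
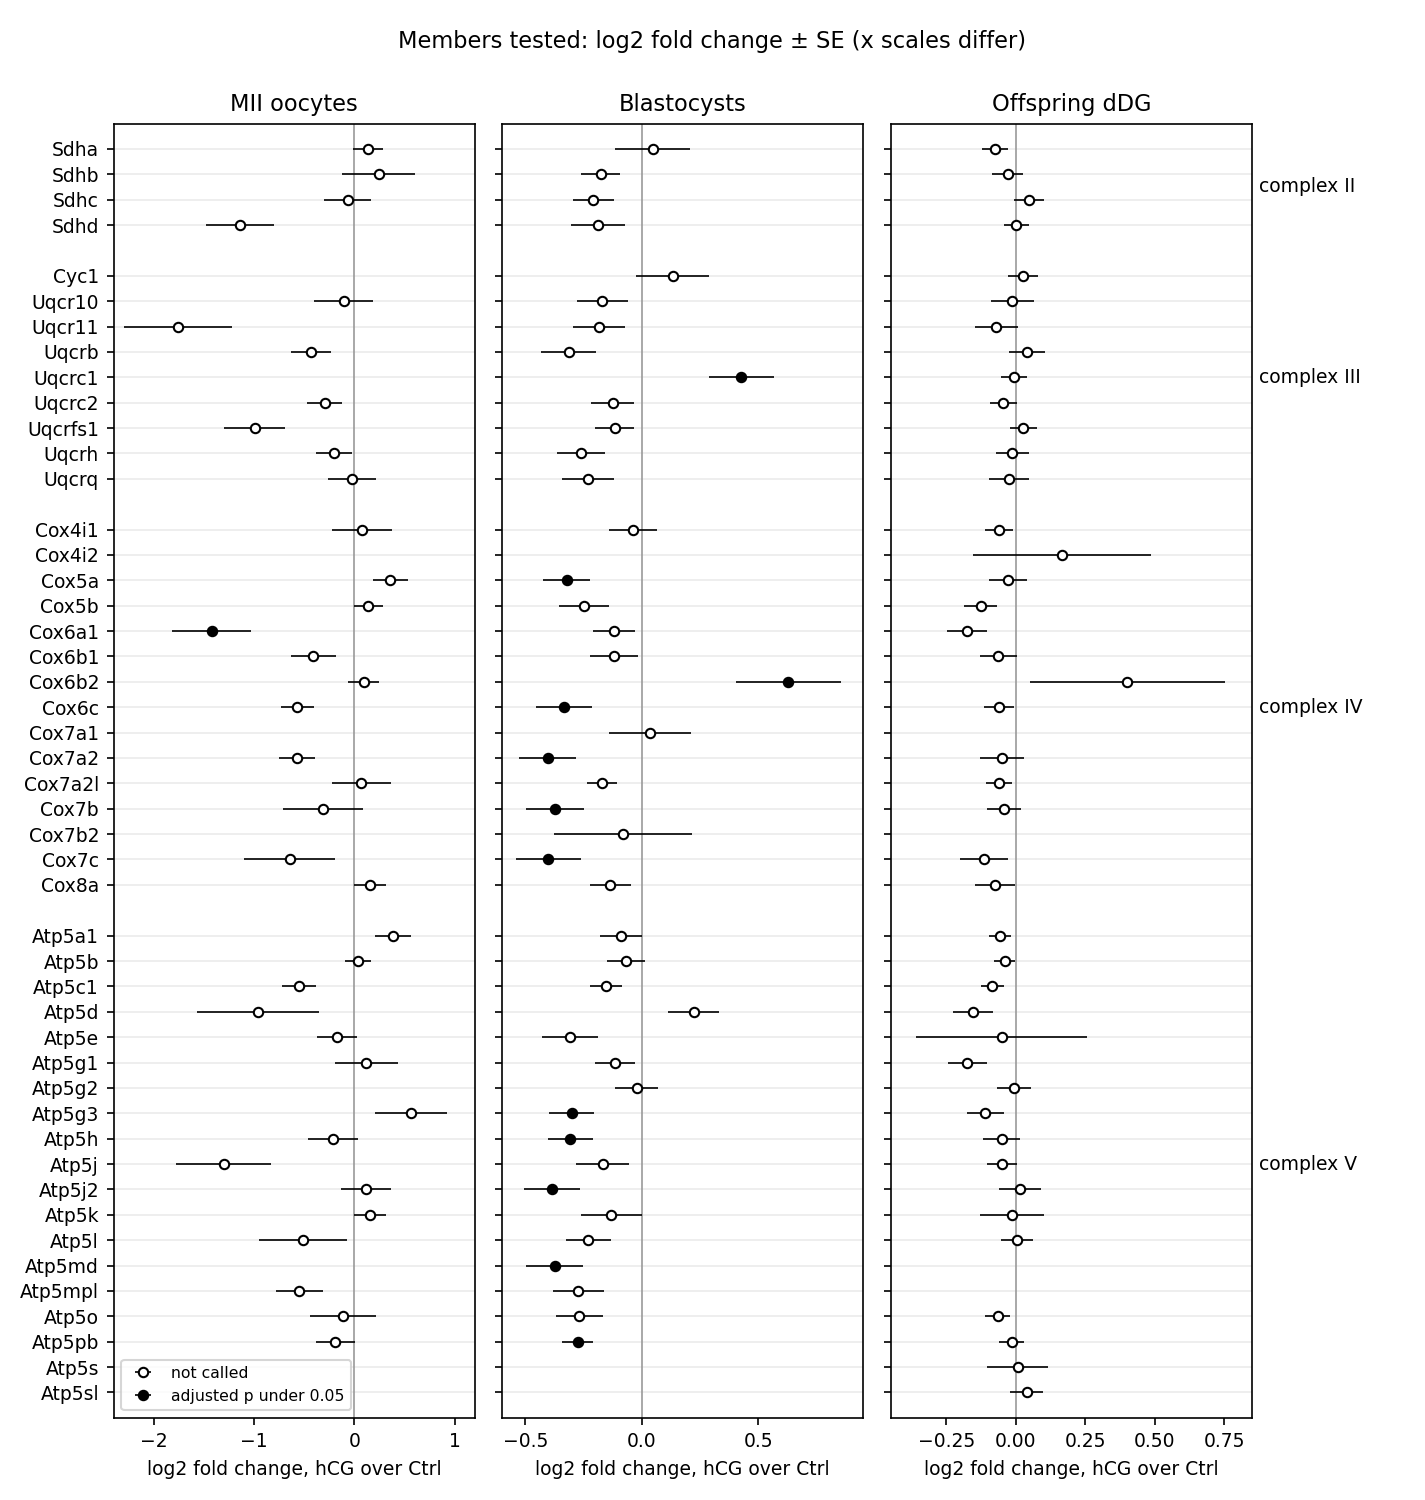
Log2 fold change of hCG over Ctrl (x axis, points, bars are SE) for each tested member (rows, grouped by complex) in oocytes, blastocysts and offspring dDG, with filled points for adjusted p under 0.05. The x scales differ; filled points number 1 in oocytes, 12 in blastocysts and 0 in the dDG.

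In complex II, none of the 4 blastocyst genes passed. Sdhb, the iron-sulfur subunit, had between 286 and 767 CPM in hCG blastocysts, median 502, against between 382 and 693 CPM in Ctrl blastocysts, median 536. The flavoprotein Sdha, which oxidises succinate, had a log2 fold change of 0.05 ± 0.16 (SE), and the membrane anchors Sdhc and Sdhd had -0.21 ± 0.09 and -0.19 ± 0.12. Summed over the 4 genes, the median was 961 CPM in hCG and 1085 CPM in Ctrl blastocysts.

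In complex III, Uqcrc1 alone of 9 genes passed. Uqcrc1 (chr9:108936648-108949641), a core subunit of the bc1 complex, ran from 506 to 1837 CPM in hCG blastocysts, median 1366, and from 179 to 2322 CPM in Ctrl blastocysts, median 942. The groups overlapped over nearly their whole range, and 25 of 28 hCG embryos lay above the Ctrl median. Its log2 fold change was 0.43 ± 0.14 (SE; limma, adjusted p = 0.0294). Uqcrc2, the other core subunit, had a median of 462 CPM in hCG and 512 CPM in Ctrl blastocysts and did not pass (log2 fold change -0.12 ± 0.09). The Rieske iron-sulfur protein Uqcrfs1 had -0.12 ± 0.08 and cytochrome c1, Cyc1, had 0.13 ± 0.16. The 7 genes of complex III below 0 ranged down to -0.31 for Uqcrb, and none of them passed. Summed over all 9 genes of the complex, Uqcrc1 and Cyc1 included, the median level was 4868 CPM in hCG and 5001 CPM in Ctrl blastocysts.

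In complex IV, 5 of 14 genes tested were lower and 1 higher. Cox7a2 (chr9:79755241-79771422), the widely expressed isoform of subunit VIIa, ran from 182 to 711 CPM in hCG blastocysts, median 286, and from 241 to 979 CPM in Ctrl blastocysts, median 372. The log2 fold change was -0.40 ± 0.12 (limma, adjusted p = 0.0186), with 23 of 28 hCG embryos below the Ctrl median. Cox5a (chr9:57517328-57532427), a matrix-side subunit next to the catalytic core, had a median of 775 CPM in hCG (532 to 1114 CPM) and 957 CPM in Ctrl blastocysts (380 to 1538.5 CPM). There 26 of 28 hCG embryos lay below the Ctrl median, and the log2 fold change was -0.32 ± 0.10 (limma, adjusted p = 0.0219).

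Cox7c, Cox7b and Cox6c, small membrane subunits of cytochrome c oxidase, were lower as well. Cox7c (chr13:86044798-86046795) had a median of 327 CPM in hCG blastocysts (227 to 803 CPM) and 434 CPM in Ctrl blastocysts (253 to 1387 CPM), with a log2 fold change of -0.40 ± 0.14 (limma, adjusted p = 0.0415). Cox7b (chrX:106015700-106022450) had a median of 156 CPM in hCG (70.2 to 311 CPM) and 204 CPM in Ctrl blastocysts (105 to 296 CPM), and a log2 fold change of -0.37 ± 0.13 (limma, adjusted p = 0.0347). Cox6c (chr15:35931976-35938246) had a median of 513 CPM in hCG (371 to 1291 CPM) and 680 CPM in Ctrl blastocysts (428 to 1613 CPM), with a log2 fold change of -0.34 ± 0.12 (limma, adjusted p = 0.047). In each of the 3 genes the group ranges overlapped, and 22, 23 and 25 of 28 hCG embryos lay below the Ctrl median. Cox4i1, the main isoform of the subunit that regulates the enzyme through ATP and ADP, had -0.04 ± 0.10 and did not pass.

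Cox6b2 (chr7:4751792-4753094), the isoform of subunit VIb known from testis, was the member of complex IV that was higher. It had between 3.98 and 26.7 CPM in hCG blastocysts, median 12.6, and between 0 and 30.8 CPM in Ctrl blastocysts, median 7.46. Its log2 fold change was 0.63 ± 0.22 (limma, adjusted p = 0.044), with 22 of 28 hCG embryos above the Ctrl median. Its widely expressed counterpart Cox6b1 had -0.12 ± 0.10, with a median of 427 CPM in hCG and 462 CPM in Ctrl blastocysts.

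In complex V, 5 of 17 genes were lower and none was higher. Atp5pb (chr3:105942698-105959263), the b subunit of the peripheral stalk that holds the catalytic head still, had the smallest adjusted p of the members. It ran from 532 to 783 CPM in hCG blastocysts, median 638, and from 582 to 1159 CPM in Ctrl blastocysts, median 772, and 26 of 28 hCG embryos lay below the Ctrl median. The log2 fold change was -0.28 ± 0.07 (limma, adjusted p = 0.00385). Atp5h (chr11:115415691-115419919), the d subunit of the same stalk, had a median of 357 CPM in hCG (269 to 732 CPM) and 431 CPM in Ctrl blastocysts (321 to 700 CPM), with a log2 fold change of -0.31 ± 0.10 (limma, adjusted p = 0.0217).

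The other lower genes of ATP synthase belong to its membrane part. Atp5j2 (chr5:145183704-145191541), the f subunit, had a median of 248 CPM in hCG (143 to 573 CPM) and 309 CPM in Ctrl blastocysts (199 to 676 CPM), with a log2 fold change of -0.39 ± 0.12 (limma, adjusted p = 0.0206). Atp5md (chr19:47083471-47090647), a small subunit known as DAPIT that helps ATP synthase form dimers, had a median of 167 CPM in hCG (121 to 437 CPM) and 229 CPM in Ctrl blastocysts (119 to 493 CPM), and -0.37 ± 0.12 (limma, adjusted p = 0.0283). Atp5g3 (chr2:73908447-73912464), a gene for the proton-carrying c ring, had a median of 296 CPM in hCG (174 to 431 CPM) and 344 CPM in Ctrl blastocysts (217 to 535 CPM), with -0.30 ± 0.10 (limma, adjusted p = 0.0258). Atp5g1 and Atp5g2, the other genes for the same c subunit, had log2 fold changes of -0.12 ± 0.09 and -0.02 ± 0.09 and did not pass. The catalytic alpha and beta subunits Atp5a1 and Atp5b had -0.09 ± 0.09 and -0.07 ± 0.08.

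**Figure D2:**
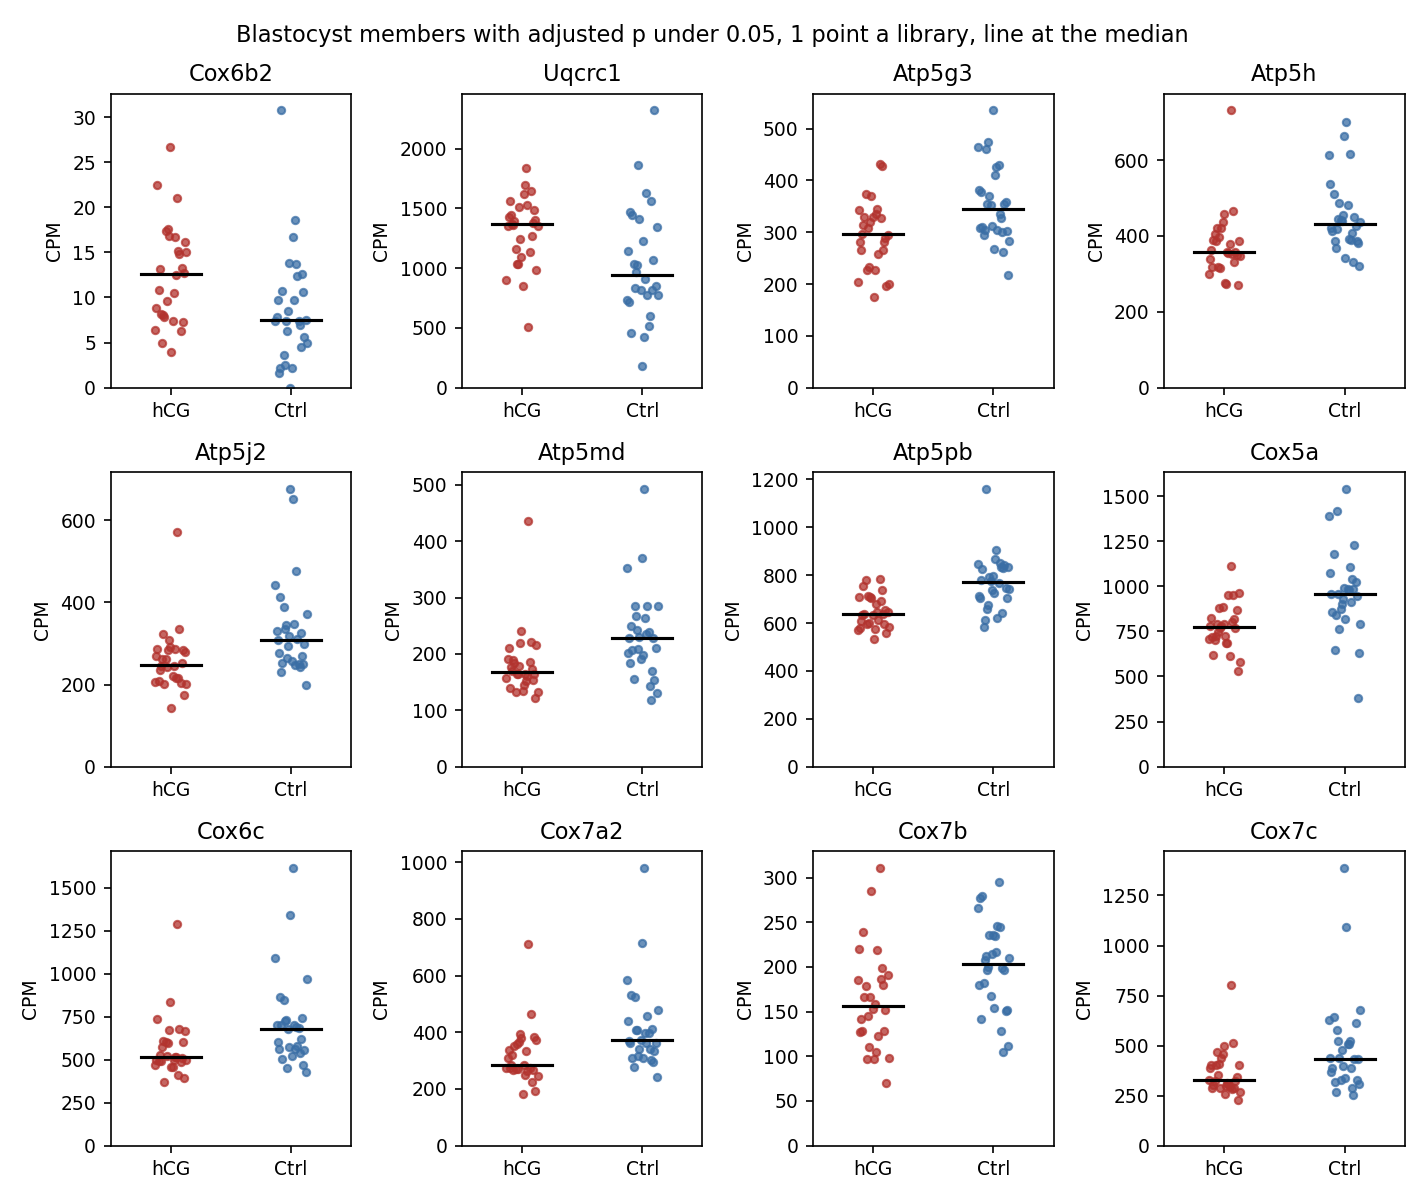
CPM (y axis, from 0) of the 12 blastocyst members with adjusted p under 0.05 in hCG and Ctrl libraries, 28 points each, with a line at the median. Every pair of groups overlaps, and the highest hCG point of each of the 10 lower genes is the same library, hCG 28, in 10 of 10 panels.

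Which libraries entered had a large effect on these counts. When each of the 56 libraries was left out in turn, Cox6c passed in 22 of 56 fits (adjusted p up to 0.0781), Cox7c in 33 (up to 0.0669), Cox6b2 in 35 (up to 0.0682) and Cox7b in 47 (up to 0.063). Embryo hCG 28 had the highest hCG value of all 10 lower genes, and without it 18 members were called lower, beside 1020 of all 10887 genes. Uqcrb, Uqcrh and Uqcrq of complex III were among these 18. Without embryo Ctrl 4, 16 members were called lower, Sdhc, Uqcrb and Uqcrh among them, beside 764 of all 10900 genes. Without the 5 hCG libraries that held both Xist and Y-linked transcripts, 3 were lower (Atp5pb, Cox5a and Cox7a2) and 1 higher (Uqcrc1). In that fit 4.42% of all genes were lower and 6.09% higher. With the number of genes detected per library as a covariate no member passed in limma, beside 4.05% of all genes lower and 3.1% higher. The 10 genes then had log2 fold changes from -0.26 to -0.05 with limma adjusted p from 0.102 to 0.826. The direction also rests on scaling to the library total. On the deposited values without it the median of all genes shifted by 0.49, with 33.7% of all genes called higher and 0.138% lower. There none of the members was lower and 9 were called higher. All 10 genes had positive values from 0.03 to 0.16, below that median of all genes. Trophectoderm markers summed to between 2202 and 8464 CPM in hCG and between 1674 and 11870 CPM in Ctrl blastocysts and inner cell mass markers to between 173 and 763 CPM in hCG and between 139 and 517 CPM in Ctrl blastocysts. Of 6 trophectoderm markers 1 was lower, Eomes with a log2 fold change of -0.69, and 3 were negative, with a median of -0.02 and with 0.39 for Gata3 and 0.34 for Tfap2c, which did not pass. Of 4 inner cell mass markers 1 was higher, Nanog with 0.58, and the median was 0.29. The part of genes detected, of cell type markers and of the deposited scale in the member results was not tested further.

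**Figure D3:**
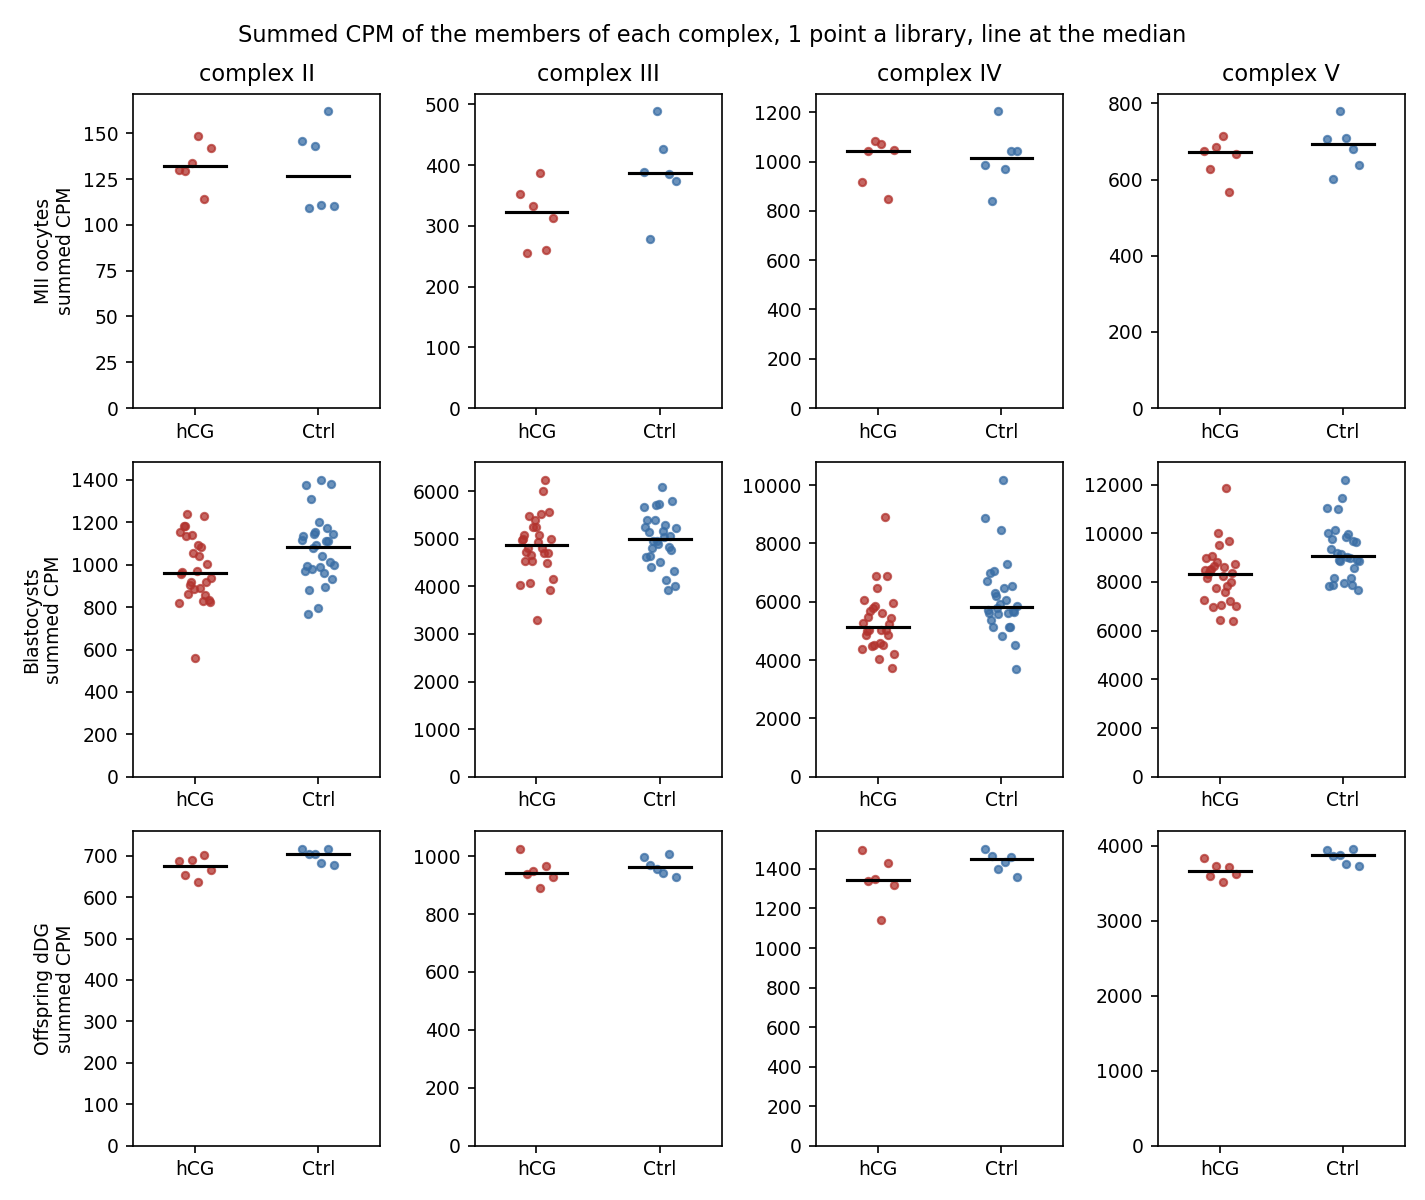
Summed CPM of the members of complexes II to V (columns, y axes from 0) in each library of oocytes, blastocysts and offspring dDG (rows), hCG left of Ctrl, with a line at the median. In blastocysts the medians of complexes IV and V were 5149 and 8332 CPM in hCG against 5818 and 9086 CPM in Ctrl embryos, with wide overlap.

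In oocytes, 1 of 38 members tested passed as lower and none as higher (edgeR quasi-likelihood F test, adjusted p under 0.05), beside 2.66% of all 9551 genes lower and 1.33% higher. The called gene was Cox6a1, the widely expressed isoform of cytochrome c oxidase subunit VIa. At an unadjusted p under 0.05 there were 10 lower members (26.3%), beside 966 of all 9551 genes (10.1%), and 2 higher. In both directions together the shares at that p were 31.6% of members and 18.9% of all genes. The members' median log2 fold change was -0.18 against 0.01 over all genes tested, and 24 of 38 were negative. The 9 members not tested, for too few counts, were Atp5g2, Atp5s, Cox4i2, Cox6a2, Cox6c2, Cox7a1, Cox8c, Cyc1 and Uqcrc1.

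Cox6a1 (chr5:115345652-115348958) had 9.33, 3.97, 6.01, 8.40, 24.4 and 11.5 CPM in hCG oocytes 1 to 6, against 43.3, 13.05, 52.2, 13.1, 18.2 and 26.8 CPM in Ctrl oocytes 1 to 6. Oocyte hCG 5 stood above the others of its group, inside the Ctrl range, and the other 5 lay below every Ctrl oocyte. The log2 fold change was -1.42 ± 0.40 (SE; edgeR, adjusted p = 0.0485). The call was lost when any of 9 of the 12 libraries was left out, with adjusted p up to 0.142.

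DESeq2 called 6 further members lower in oocytes, all with adjusted p between 0.0209 and 0.0393, beside 427 of all 9551 genes (4.47%) called lower by DESeq2. They were Sdhd, Uqcr11, Uqcrfs1, Cox6c, Cox7a2 and Atp5c1, whose edgeR adjusted p lay between 0.0566 and 0.081. Sdhd, a membrane anchor of complex II, had 2.38, 6.40, 3.52, 6.00, 6.00 and 7.49 CPM in hCG oocytes, against 18.9, 14.3, 8.39, 15.1, 9.22 and 4.88 CPM in Ctrl oocytes. All 6 hCG oocytes lay below the Ctrl median of 11.8 CPM, with 1 Ctrl oocyte among them (log2 fold change -1.14 ± 0.34). Uqcrfs1, the Rieske protein, had 8.34, 6.84, 4.76, 3.12, 4.69 and 7.70 CPM in hCG oocytes, against 9.34, 14.3, 11.4, 8.08, 9.63 and 17.5 CPM in Ctrl oocytes. A lone hCG oocyte, replicate 1, reached above the lowest Ctrl value (log2 fold change -0.99 ± 0.30).

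The remaining 4 of these oocyte genes come from complexes III, IV and V. Uqcr11, a small subunit of complex III, had a median of 2.02 CPM in hCG oocytes (0.828 to 9.37 CPM) and 6.52 CPM in Ctrl oocytes (4.21 to 25.6 CPM). Atp5c1, the rotating gamma subunit of ATP synthase, had a median of 64.6 CPM in hCG oocytes (50.2 to 84.1 CPM) and 96.6 CPM in Ctrl oocytes (74.5 to 118 CPM). Cox6c and Cox7a2 had medians of 102 and 77.1 CPM in hCG oocytes, against 140 and 116 CPM in Ctrl oocytes, with log2 fold changes of -0.57 ± 0.16 and -0.57 ± 0.18. In all 4 genes the group ranges overlapped.

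**Figure D4:**
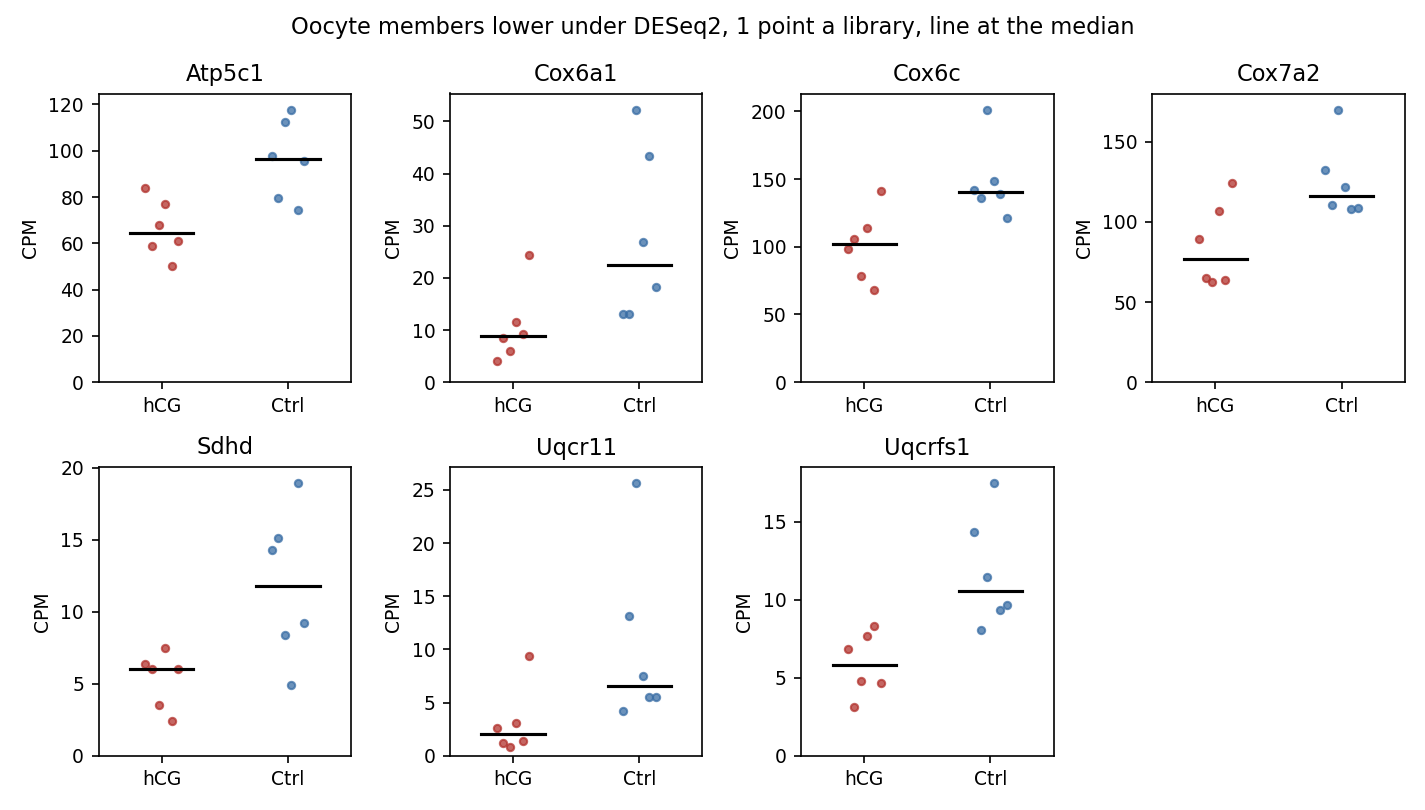
CPM (y axis, from 0) of the 7 oocyte members that DESeq2 called lower, in 6 hCG and 6 Ctrl oocytes, 1 point a library with a line at the median. The hCG median is below the Ctrl median in every panel and the ranges overlap; in edgeR only Cox6a1 passed.

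Other abundant members of the oocyte did not pass. Atp5b, the catalytic beta subunit, had between 271 and 394 CPM in hCG oocytes and between 273 and 369 CPM in Ctrl oocytes (log2 fold change 0.04 ± 0.13). Cox8a, the smallest subunit of cytochrome c oxidase, had medians of 271 CPM in hCG and 248 CPM in Ctrl oocytes (0.16 ± 0.16), and Uqcrc2 medians of 229 CPM in hCG and 279 CPM in Ctrl oocytes (-0.30 ± 0.17). Cox5a had between 188 and 316 CPM in hCG oocytes and between 120 and 215 CPM in Ctrl oocytes, and a log2 fold change of 0.36 ± 0.17 (edgeR, adjusted p = 0.257). Summed over complex III, hCG oocytes had a median of 322 CPM and Ctrl oocytes 388 CPM, and over complex V 671 CPM in hCG and 693 CPM in Ctrl oocytes.

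In the dDG of offspring no member passed among 43 tested (edgeR, adjusted p under 0.05), beside 4.66% of all 13853 genes higher and 3.2% lower. DESeq2 and limma also called 0 members. At an unadjusted p under 0.05 there were 3 (6.98%), all lower, Cox6a1, Atp5g1 and Cox5b, beside 11.3% of all genes lower at that p. Cox6a1 had a median of 167 CPM in hCG offspring (133 to 201 CPM) and 192 CPM in Ctrl offspring (180 to 198 CPM), and a log2 fold change of -0.18 ± 0.07 (edgeR, adjusted p = 0.142). Without library hCG 2 this gene passed, as the lone member that did.

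For some members the dDG values limit how large a difference could be, though the intervals given are nominal and somewhat too narrow. For Uqcrc1 the nominal 95% interval of the log2 fold change ran from -0.10 to 0.09 and for Cox5a from -0.16 to 0.11. For Atp5f1, the gene listed as Atp5pb in blastocysts, it ran from -0.10 to 0.07. Over all members tested the median was -0.04 and the range -0.18 to 0.40, against a median of 0.00 over all genes. The member at the upper end was Cox6b2, which had a median of 0.930 CPM in hCG and 0.902 CPM in Ctrl offspring. Its nominal interval was wide, from -0.29 to 1.09, and included its blastocyst value of 0.63. The library with choroid plexus transcripts, hCG 6, had the lowest summed level of its group in each of the 4 complexes, and without it 0 members passed. Summed over complex V, hCG offspring had a median of 3671 CPM (3518 to 3844 CPM) and Ctrl offspring 3878 CPM (3729 to 3960 CPM).

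Atp5e, the epsilon subunit of the ATP synthase head, differed more between dDG libraries than between groups. It had 36.8, 37.0, 35.7, 15.4, 15.96 and 30.0 CPM in hCG offspring 1 to 6, against 35.5, 38.3, 36.4, 18.7, 14.9 and 35.3 CPM in Ctrl offspring 1 to 6. The libraries numbered 4 and 5 were low in both groups. The nominal 95% interval of its log2 fold change was correspondingly wide, from -0.66 to 0.55.

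Whether the hCG effect itself differed between materials was tested for each gene. Of 37 members compared between oocytes and blastocysts, 1 passed: Cox5a, whose log2 fold change was 0.68 ± 0.20 larger in oocytes than in blastocysts (Wald test of limma fits, adjusted p = 0.0392), beside 8.76% of all 7178 genes. Between oocytes and dDG, and between blastocysts and dDG, 0 members passed, beside 3.37% and 3.46% of all genes. At an unadjusted p under 0.05 there were 10 and 9 members, beside 20.1% of 7658 and 24.1% of 9341 genes. Uqcrc1 could be compared between blastocysts and dDG only (adjusted p = 0.0965), and Atp5md and Atp5pb in no pair with blastocysts. The Cox5a difference was 0.56 ± 0.20 (adjusted p = 0.0646) without those 5 blastocyst libraries and without oocytes Ctrl 2 and 4, which had few reads or genes detected.

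The members' levels differed widely between materials, and are set side by side as a description because the 3 tables were normalised separately. Of 44 genes found in all 3 tables, 31 had their median Ctrl level in the order blastocyst, dDG, oocyte, and in 25 of these no ranges of Ctrl libraries overlapped. Blastocysts had the highest level, with a range apart from the next, for 31 genes. The gap was large for Uqcrc1, with a median of 942 CPM in Ctrl blastocysts, 199 CPM in Ctrl dDG and 0.479 CPM in Ctrl oocytes, and for Cyc1, with 253, 105 and 0.709 CPM in the same order. Uqcrc2, the partner of Uqcrc1, had 512, 263 and 279 CPM in the same order, with ranges that overlapped between neighbours.

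**Figure D5:**
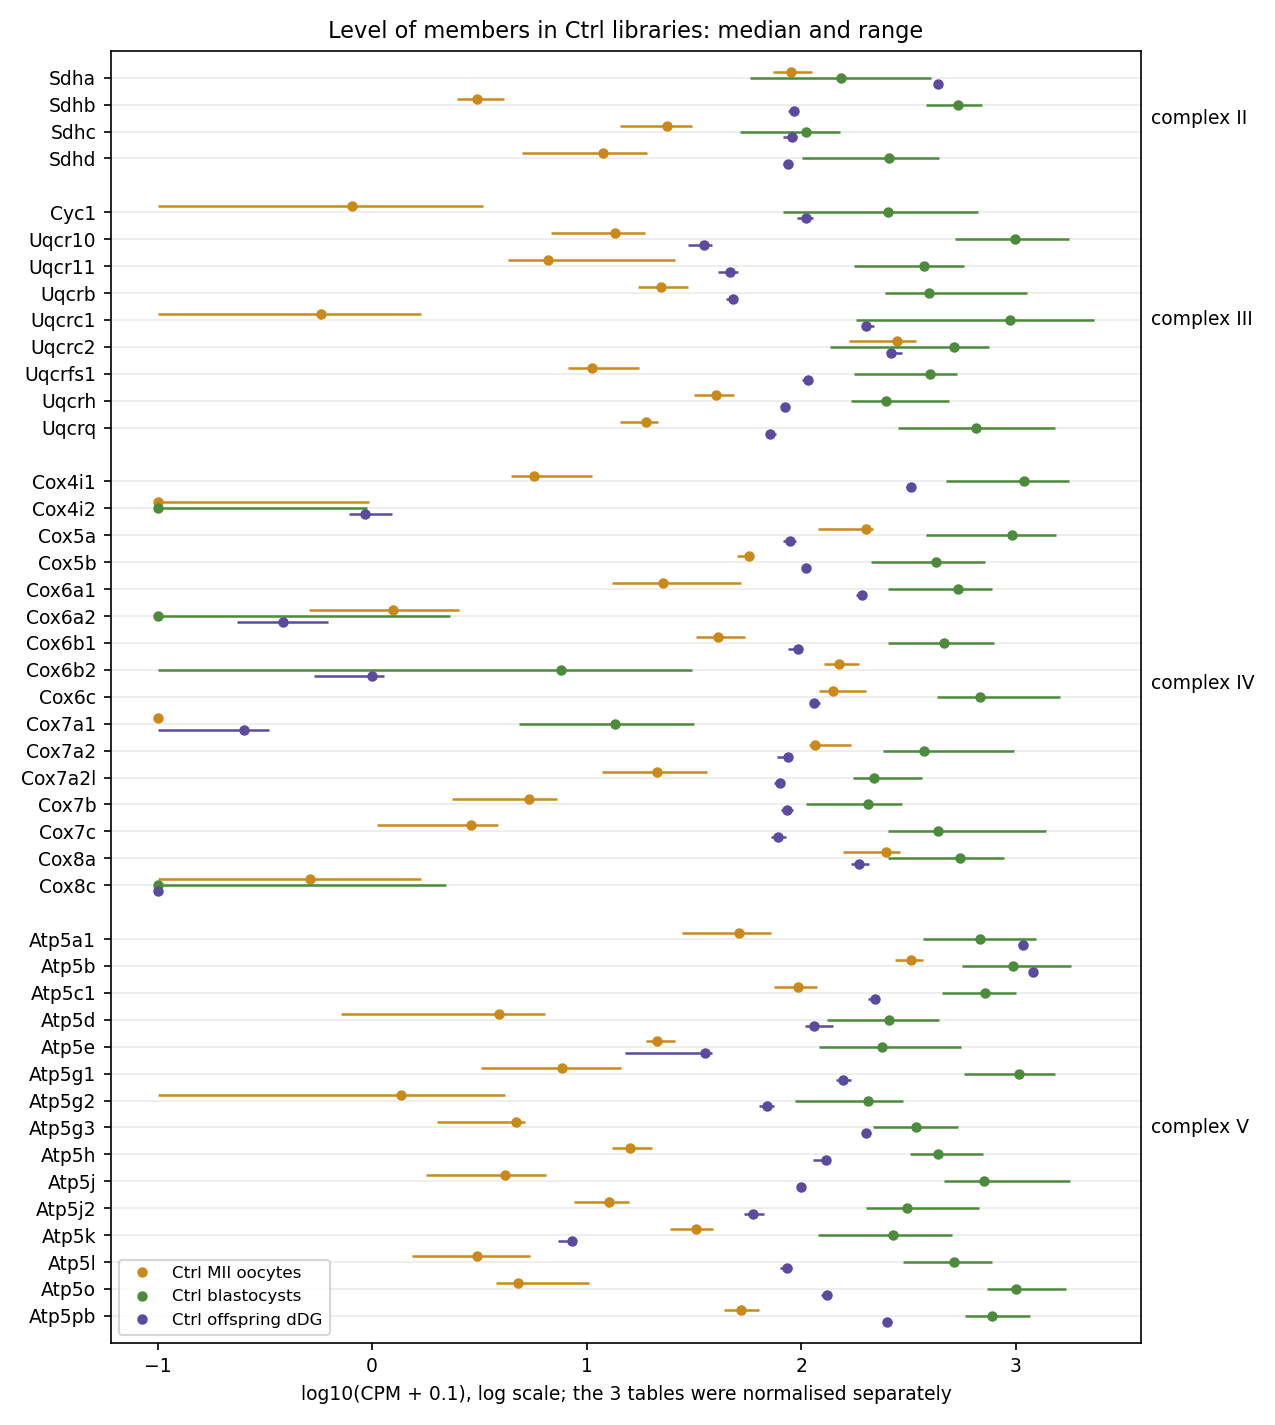
Level of 44 members in Ctrl libraries, as log10(CPM + 0.1) on the x axis, with the median (point) and the range (line) in oocytes, blastocysts and dDG. For Uqcrc1 the medians are 0.479 CPM in oocytes, 942 CPM in blastocysts and 199 CPM in the dDG; for Cox6b2 the oocyte median of 149 CPM is the highest.

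The paralogous isoforms of complex IV had levels of their own. Cox6b2 had a median of 164 CPM in hCG and 149 CPM in Ctrl oocytes, against 12.6 CPM in hCG and 7.46 CPM in Ctrl blastocysts, and was highest in oocytes with a range apart from the other materials. Cox7a1, the heart and skeletal muscle isoform of subunit VIIa, had medians of 12.5 CPM in hCG and 13.4 CPM in Ctrl blastocysts, and at most 0.411 CPM in any oocyte or dDG library. Cox4i2, the isoform known from lung and low oxygen, had medians of 0.844 CPM in hCG and 0.825 CPM in Ctrl dDG, and a median of 0 in the other materials. The muscle isoform Cox6a2 never exceeded 2.48 CPM, and Cox8b, another muscle isoform, was listed at 0 in all blastocyst libraries. The sperm and testis isoforms Cox7b2 and Cox8c stayed at or below 17.3 and 2.11 CPM. Of these minor isoforms only Cox6b2 passed in any material where it was tested.

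In the dDG table, which lists transcripts, several ATP synthase genes were spread over more than 1 transcript. The main transcript of Atp5g1 took a median of 65.5% of the gene's counts in hCG and 62.9% in Ctrl offspring, and that of Atp5g3 71.7% in hCG and 69.7% in Ctrl offspring. For Atp5j the shares were 80.0% in hCG and 78.2% in Ctrl offspring. The group ranges of these shares overlapped for all 3 genes.

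Other genes of the pathway were read from lists of complex I, assembly factors, carriers, regulators and the tricarboxylic acid cycle. Of 37 complex I genes tested in blastocysts 7 were lower (18.9%, beside 7.59% of all genes) and 0 higher, with a median log2 fold change of -0.19. Ndufb5 had a mean of 169 ± 41.4 CPM in hCG and 244 ± 75.9 CPM in Ctrl blastocysts (SD, n = 28 each; limma, adjusted p = 0.00113). In oocytes 1 of 27 complex I genes was called lower and 1 higher (3.7% each, beside 2.66% and 1.33% of all genes). The lower one, Ndufa4, a protein named for complex I and since found with complex IV, had 114 ± 72.0 CPM in hCG and 330 ± 93.2 CPM in Ctrl oocytes (SD; edgeR, adjusted p = 0.00371). Ndufb5 was the higher one in oocytes, with 17.9 ± 4.20 CPM in hCG and 7.99 ± 3.15 CPM in Ctrl oocytes (SD; edgeR, adjusted p = 0.0303). The median log2 fold change of the 27 oocyte genes was -0.46, and 23 were negative. At an unadjusted p under 0.05, 11 were lower (40.7%, beside 10.1% of all genes). Summed over all 39 listed complex I genes, Ndufa4 included, hCG oocytes had 508 to 775 CPM, median 606, and Ctrl oocytes 836 to 1367 CPM, median 953. The Ndufa4 difference given above is a large part of that gap, and the sum was not taken without it. In the dDG 0 of 37 complex I genes passed in edgeR, and 1 had an unadjusted p under 0.05.

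Assembly factors of complexes II to V were called in small numbers. In oocytes 2 of 20 were lower (10.0%, beside 2.66% of all genes): Sdhaf4, which helps insert the flavoprotein of complex II, with a log2 fold change of -1.08 ± 0.17 (edgeR, adjusted p = 0.001), and Tmem70, an ATP synthase assembly factor, with -1.01 ± 0.18 (edgeR, adjusted p = 0.00298). In blastocysts 4 of 34 were lower (11.8%, beside 7.59% of all genes) and 3 higher (8.82%, beside 8.68%), shares near those of all genes. Ttc19, a complex III factor, had -0.67 ± 0.13 (limma, adjusted p = 0.000533), whereas Tmem70 and Atpaf2, which acts on the ATP synthase head, had 0.37 ± 0.10 and 0.50 ± 0.13. In the dDG 0 of 34 passed in edgeR, and 2 had an unadjusted p under 0.05.

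Of cytochrome c and the carriers of ATP and phosphate, 1 of 10 was lower in blastocysts (10.0%, beside 7.59% of all genes) and 1 of 10 in oocytes (10.0%, beside 2.66%). Cycs, cytochrome c itself, had 1025 ± 225 CPM in hCG and 1319 ± 404 CPM in Ctrl blastocysts (SD, n = 28 each; limma, adjusted p = 0.0158). Vdac2, an outer membrane channel, had 56.4 ± 10.1 CPM in hCG and 118 ± 30.1 CPM in Ctrl oocytes (SD; edgeR, adjusted p = 0.00265). Among 16 regulators tested in blastocysts 2 were lower (12.5%, beside 7.59% of all genes), Gabpb2, a subunit of GA-binding protein, and the coactivator Ppargc1b. Among 18 in the dDG 1 was higher (5.56%, beside 4.66% of all genes). This was Gabpb1, with 25.6 ± 2.87 CPM in hCG and 17.9 ± 1.79 CPM in Ctrl offspring (SD, edgeR adjusted p = 0.00226). Of the tricarboxylic acid cycle, 0 of 13 genes passed in blastocysts in limma, with 1 at an unadjusted p under 0.05. Sucla2 was higher in oocytes (0.67 ± 0.19, edgeR adjusted p = 0.0499), 9.09% of 11 tested beside 1.33% of all genes. Idh3g was lower in the dDG (-0.24 ± 0.05, edgeR adjusted p = 0.012), 7.69% of 13 tested beside 3.2% of all genes. Each of these list shares above 0 rests on 1 or 2 genes. The mitochondrially encoded subunits were tested in oocytes only, where 0 of 2 passed in edgeR and 0 had an unadjusted p under 0.05.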

How the data were processed

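The 80 RNA libraries were analysed, each column taken to a sample by its label. The 44 bisulfite libraries were not analysed here. The deposited oocyte table holds counts per gene symbol. The deposited dDG table holds expected counts per RefSeq transcript, which were summed per gene and rounded. The deposited blastocyst table holds a signal: in each library a unit step could be found, 39.3 to 244 in size, of which 89.0% to 93.5% of values were integer multiples within 0.005. The basis of that scaling is not given in the sources used here, and dividing by the step gave estimated reads. The submitters' processing notes name the aligners STAR 2.7.6a, Bowtie2 and TopHat, the trimmers Trimmomatic 0.32 and Trim Galore 0.6.4, and HTSeq 0.12.4, with the builds GRCm38 and mm10 and no role for each table. How reads that match pseudogene copies were assigned is not stated. Subunit pseudogenes left out by the symbol rule reached at most 4.76 CPM in any library. This does not bound what members with near-identical copies may share with them, and their levels are uncertain. Symbols turned into dates (23 in the oocyte and 25 in the dDG table, 0.169% and 0.324% of counts) were left out.

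Oocyte and dDG values were tested with edgeR 4.0.16 (TMM, minimum count 10, robust quasi-likelihood F test) and blastocyst values with limma 3.58.1 (trend, robust) on log2(TMM-normalised CPM + 1), a scale that understates changes of low genes, in R 4.3.3. All tests were two-sided, Benjamini-Hochberg adjustment ran over every gene tested in a table, and calls needed an adjusted p under 0.05. CPM printed per library are scaled to the library total. Intervals of log2 fold changes are nominally 95%, from a normal multiplier of the SE, and cover the spread between libraries. With few libraries they are too narrow. For Atp5c1 in the dDG the interval ran from -0.17 to -0.0003 although the unadjusted p was 0.0675 (edgeR). Library measures were compared by permutation (100000 resamples for blastocysts). Each fit was run on simulated data whose changes were larger than those of any member called. That run cannot show how well changes of the size called here are found. DESeq2 1.42.0 and the settings under the closing section were alternatives. Gene and promoter positions are RefSeq's on GRCm38.p6.

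The members, the pathway lists and the markers were chosen with earlier results of these data known. Named with values were members called in any table, paralogous isoforms, complex II, the 2 most abundant members per complex and table, members found in 1 table, and called genes of each list by smallest p, at most 4 per list. Atp5j, Atp5e, Atp5d, Uqcr11, Uqcrfs1, Uqcrb, Cox5b and Cyc1 were named after their values were seen. Transcript lengths were not used, so levels of different genes are not compared.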

Additional observations from a re-analysis of the deposited data

Results flagged for a closer look

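In 128 groups of 6 libraries, 7 held a library far from the other 5 by Dixon's criterion, where chance gives about 1 in 20 groups. In oocytes these were Cox6a1 in hCG 5 (24.4 CPM, the other hCG oocytes 3.97 to 11.5 CPM), Cox5a in Ctrl 4 (120 CPM, the others 190.1 to 215 CPM) and Cox6c in Ctrl 3 (201 CPM, the others 121 to 148 CPM). In the dDG they were Cox6b2 in hCG 6 (2.47 CPM, the others 0.504 to 1.10 CPM), Cox6b2 in Ctrl 5 (0.433 CPM, the others 0.843 to 1.04 CPM), Cox6b1 in Ctrl 5 (86.8 CPM, the others 95.5 to 98.9 CPM) and Uqcrc2 in Ctrl 1 (295 CPM, the others 259 to 268 CPM). Library hCG 6 of the dDG is the one with choroid plexus transcripts; their part in its Cox6b2 value was not tested.

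The hCG effect on Cox5a differed between oocytes and blastocysts by a log2 difference of 0.68 (Wald test of limma fits, adjusted p = 0.0392, 1 of 37 members). The oocyte Ctrl 4 library, with 120 CPM, is the low one of its group for this gene.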

How the results depend on the processing

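The count of oocyte members called lower, 1 in edgeR, was 7 with DESeq2 and 4 with genes detected as a covariate. It was 3 with limma on log2(CPM + 1) and 0 with no low-count filter. Of all genes 2.66%, 4.47%, 3.47%, 3.07% and 1.28% were lower in the same order. The members' count ran from 0 to 4 when each library was left out. There were 4 without Ctrl 4, beside 363 of all 9758 genes, and 4 without hCG 5, beside 205 of all 9696 genes. In every setting run 0 members were higher. In blastocysts, 10 members lower and 2 higher became 11 and 0 with edgeR on estimated reads, beside 8.96% and 5.31% of all genes. They became 9 and 1 with a pseudocount of 0.1 (all genes 7.2% and 8.21%). With no low-count filter they were 7 and 0 (all genes 3.14% and 4.07%). Without hCG 1, 3, 4, 22 and 23 they were 3 and 1 (all genes 4.42% and 6.09%). With genes detected as a covariate they were 0 and 0 (all genes 4.05% and 3.1%). The members' counts ran from 7 to 18 lower and from 1 to 2 higher when each library was left out. On the unscaled deposited values 0 members were lower and 9 higher, beside 0.138% and 33.7% of all 10850 genes. The members' median log2 fold change was 0.26 there, against 0.49 over all genes. The 10 lower genes then had positive values, all below that median of all genes: Atp5g3 0.13, Atp5h 0.13, Atp5j2 0.048, Atp5md 0.059, Atp5pb 0.16, Cox5a 0.11, Cox6c 0.10, Cox7a2 0.030, Cox7b 0.060 and Cox7c 0.033. In the dDG 0 members were called in the 7 other settings, where 1.42% to 5.13% of all genes were lower and 2.79% to 6.38% higher. From 0 to 1 dDG members were lower when each library was left out. The Cox5a difference between materials was 0.56 without oocytes Ctrl 2 and 4 and the 5 hCG blastocysts named above. The causes were not tested. The limma fits of oocytes and dDG and the dDG covariate were added after seeing the data.

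Not every pair of same-numbered libraries correlated above 0.1, so the numbers were not taken to pair the samples: correlations ran from -0.19 to 0.21 in oocytes, from -0.21 to 0.17 in blastocysts and from -0.16 to 0.14 in the dDG, where numbers 4 and 5, low for Atp5e in both groups, had the highest (0.10 and 0.14). With the replicate block, 1 oocyte member was lower, beside 2.26% of all genes. In blastocysts 9 members were lower and 1 higher, beside 6.36% and 7.74% of all genes. In the dDG 0 members were called, beside 1.42% of all genes lower and 2.79% higher.

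In oocytes 9 members had too few counts to be tested.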
